A study of Mus musculus with 4 samples.

Results

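The 36 genes described here are expressed as cells copy their DNA and divide, and they were taken as a given list, by gene symbol, out of the 30406 genes that the 4 libraries of the series shared. The list holds 23 genes of mitosis (Mki67, Top2a, Birc5, Ccna2, Ccnb1, Ccnb2, Cdk1, Cdc20, Cenpa, Cenpe, Cenpf, Tpx2, Ube2c, Aurka, Aurkb, Bub1, Bub1b, Plk1, Kif11, Kif20a, Kif23, Nusap1 and Prc1), 11 genes of DNA replication and nucleotide supply (Mcm2 to Mcm7, Pcna, Rrm1, Rrm2, Tyms and Tk1) and 2 genes that are also expressed outside the cycle (Stmn1 and Hmgb2). No value entered the rule that lists them, but the list was chosen with earlier results of these data known. All 36 had at least 1 unique molecular identifier (UMI, a count of 1 captured mRNA molecule) in each library.

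The libraries were made by droplet single-cell RNA sequencing of popliteal lymphatic vessels (PLVs), which drain the joints of the hindlimb, and of the adjacent superficial saphenous veins (SSVs) from mice on a C57BL/6J background, 3 mice pooled per library. The 2 replicate libraries tdT1 and tdT2 held sorted tdT+ cells of Cspg4-Cre;Ai9-tdTomato animals, in which the Cspg4 promoter drives Cre and Cre switches on the red reporter tdTomato. The WT library came from male wild-type mice and the TNF-Tg library from male mice of a TNF-transgenic line with inflammatory-erosive arthritis, both labelled 9 months old, carrying no reporter and sorted for high forward and side scatter. With 1 library per condition there was no replicate of WT or TNF-Tg, so that a difference between the 2 conditions has counting intervals and no p-value, and batch and condition cannot be told apart.

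The libraries held 454 to 5488 cells, 2357031 to 68773605 UMIs and a median of 4932.5 to 12660 UMIs per cell, with 1.16% to 4.11% of the UMIs from mitochondrial genes. The study's lymphatic muscle cells (LMCs) and the vascular smooth muscle cells of the vein (VSMCs) carried hardly any contractile transcripts. In the cells given these identities here, the 7 contractile markers, among them Acta2 and Myh11, summed to 15.9 to 37.04 CPM (counts scaled to 1000000 UMIs) over the 4 libraries, and 1 of these cells, in tdT1, had 3 of the markers. Over whole libraries the sum was 10.97 to 109 CPM, Cnn1 was at 0 in tdT2 and TNF-Tg, and 13 cells of tdT1, 1 of tdT2 and none of WT or TNF-Tg had 3 of the markers. The cells are called LMC-type and VSMC-type stromal cells here after other markers (Myoc, Fndc1 and Efemp1 against Cxcl14, Mgp and Gdf10). Every other type name ends in -like, since it rests on rebuilt marker gates that contain no proliferation gene.

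Dividing cells pass through a phase of DNA synthesis before mitosis. The MCM proteins form the helicase that opens DNA at replication origins, Pcna is the clamp that holds DNA polymerase, and Rrm1, Rrm2, Tyms and Tk1 supply deoxynucleotides. The mitotic genes peak later: Cdk1 with its cyclins drives entry into mitosis, Top2a untangles chromosomes, Cenpa and Cenpf sit at centromeres, Birc5 and Aurkb belong to the chromosomal passenger complex, Kif23 and Prc1 act at the midzone of the spindle, and Ube2c and Cdc20 work with the ligase that ends mitosis. Mki67 coats mitotic chromosomes and is the usual histological marker of cycling cells. Mature VSMCs and neutrophils are largely non-dividing, whereas tissue macrophages and dendritic cells can divide in place.

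The regions before the start sites of these genes share short letter patterns. In RefSeq promoter windows of 300 bases (GRCm38.p6, 250 bases before to 50 after the start), 30 of the 36 members had a window; Ccna2, Tpx2, Aurkb, Kif20a, Mcm4 and Stmn1 had none. The letters of the cell cycle homology region, TTTGAA or TTCGAA on either strand, were in 16 of 20 windows of mitotic members (80%), in 2 of 11 windows of replication members (18.2%) and in 19.2% of all 32851 windows. CCAAT, on either strand, was in 90% of the mitotic and 81.8% of the replication windows against 37.4% of all windows. The E2F letters TTTCCCGC, TTTCGCGC, TTTGCCGC or TTTGGCGC, on either strand, were in 4 of 11 replication windows (36.4%), in 1 of 20 mitotic windows (5%) and in 2.26% of all windows. A match is a description of letters and was not tested as a binding site.

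The 150 bases before the start are shown for 5 members that carry the results below, in lower case with all matches to these patterns in capitals and with each stretch read on the strand of the gene. Mki67 lies on the minus strand at chr7:135716380-135716529, Top2a on the minus strand at chr11:99024190-99024339, Cenpa on the plus strand at chr5:30666736-30666885, Mcm5 on the plus strand at chr8:75109359-75109508 and Mcm6 on the minus strand at chr1:128359706-128359855, all in GRCm38.p6.
Mki67: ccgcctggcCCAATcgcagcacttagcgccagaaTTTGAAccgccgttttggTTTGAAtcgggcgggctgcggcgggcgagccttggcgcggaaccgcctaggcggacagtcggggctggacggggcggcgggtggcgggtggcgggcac
Top2a: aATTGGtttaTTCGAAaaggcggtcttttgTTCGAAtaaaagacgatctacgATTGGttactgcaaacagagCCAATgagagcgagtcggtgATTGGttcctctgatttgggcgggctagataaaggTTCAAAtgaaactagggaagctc
Cenpa: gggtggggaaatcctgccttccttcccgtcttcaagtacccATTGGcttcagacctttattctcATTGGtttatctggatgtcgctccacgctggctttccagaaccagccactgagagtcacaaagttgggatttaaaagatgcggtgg
Mcm5: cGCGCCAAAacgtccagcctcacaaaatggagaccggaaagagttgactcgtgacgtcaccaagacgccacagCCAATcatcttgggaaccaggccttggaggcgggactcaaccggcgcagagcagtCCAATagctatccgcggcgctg
Mcm6: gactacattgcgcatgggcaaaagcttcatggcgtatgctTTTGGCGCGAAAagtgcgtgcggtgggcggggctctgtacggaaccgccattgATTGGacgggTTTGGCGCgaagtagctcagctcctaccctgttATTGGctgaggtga
The stretches of Mki67 and Top2a hold 2 and 3 matches to the cell cycle homology letters, those of Mcm5 and Mcm6 hold none and have 1 and 3 matches to the E2F letters, and that of Cenpa holds CCAAT matches only.

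Which cell types cycled was first asked with a threshold of 3 summed UMIs of the 23 mitotic members in 1 cell. In WT 343 of 5488 cells passed it (6.25%, 95% exact Clopper-Pearson interval 5.62 to 6.92%) and in TNF-Tg 172 of 3391 (5.07%, 4.36 to 5.87%), a ratio of TNF-Tg over WT of 0.812 (0.672 to 0.977). Of these cells 92.7% were leukocytes in WT and 91.9% in TNF-Tg. Leukocytes were 3033 of all 5488 cells in WT and 2140 of all 3391 in TNF-Tg. In the tdT+ libraries the share was 2.79% (2.02 to 3.76%) in tdT1 and 2.20% (1.06 to 4.01%) in tdT2. All intervals cover counting error only, not the spread between mice.

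Most cells above this threshold carried very few mitotic UMIs. The number of mitotic UMIs per cell fell steeply up to 9, with 260 WT and 146 TNF-Tg cells at 3 to 9 UMIs, and then had a long thin tail up to 632 UMIs in WT and 313 in TNF-Tg. The cells at 3 to 9 UMIs held a median of 2 different mitotic members, and 56 of those in WT (21.5%) and 23 in TNF-Tg (15.8%) held only 1. Cenpa and Kif23 alone gave 58.3% of their mitotic UMIs in WT and 41.2% in TNF-Tg, against 58.7% and 49.8% in cells with 0 to 2 mitotic UMIs. These 2 genes were singled out after their values were seen.

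Cells with at least 10 mitotic UMIs had another makeup. WT held 83 (1.51%, 1.21 to 1.87%) and TNF-Tg 26 (0.767%, 0.501 to 1.12%), a ratio of 0.507 (0.313 to 0.796). Their median was 104 mitotic UMIs in WT and 69 in TNF-Tg, spread over a median of 18 and 15.5 different mitotic members. All 23 members were found among them, and Cenpa and Kif23 gave only 8.92% and 8.74% of the mitotic UMIs. Mki67 was the largest contributor in WT (13.6%) and Top2a in TNF-Tg (12.7%). Of the WT cells within the erythroid gate, 1 passed through 18 UMIs of Ube2c alone. These cells were also deeper, with a median of 21573 UMIs in WT and 23613.5 in TNF-Tg against 12375 and 10409 in cells under 3 mitotic UMIs, and the part of depth in the result was not tested beyond thinning. When each cell was thinned to 3000 UMIs and shallower cells were left out, 1.68% of WT and 0.851% of TNF-Tg cells kept 3 or more mitotic UMIs, again a ratio of 0.507. The threshold of 10 UMIs was set after this distribution had been seen.

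By cell type, the cells with at least 10 mitotic UMIs were mostly leukocytes: 77 of 83 in WT (92.8%) and 21 of 26 in TNF-Tg (80.8%). Over all cells, leukocytes were 3033 of 5488 in WT and 2140 of 3391 in TNF-Tg. The others with at least 10 mitotic UMIs in TNF-Tg were 4 LMC-type cells and 1 erythroid cell. Ear2 and Retnla phagocyte-like cells gave the most in WT, 29 of 291 cells (9.97%, 6.78 to 13.998%). None of 19 passed in TNF-Tg, which allows up to 15.8%. Limits given for a count of 0 are 3 cells over the number of cells, which is below the upper end of the exact interval. Among Cd209a dendritic cell-like cells, conventional dendritic cells of the cDC2 kind, 15 of 158 passed in WT (9.49%, 5.41 to 15.2%) and 7 of 205 in TNF-Tg (3.41%, 1.38 to 6.91%), a ratio of 0.360 (0.124 to 0.937). In T cell-like cells 5 of 61 passed in WT (8.20%, 2.72 to 18.1%) and 1 of 67 in TNF-Tg (1.49%, 0.0378 to 8.04%), and the interval of this ratio spanned 1 (0.182, 0.00385 to 1.63). NK cell-like cells had 3 of 23 in WT (13.04%, 2.78 to 33.6%) and 0 of 32 in TNF-Tg, which allows a share of up to 9.38%. For cDC1-like cells, the cross-presenting dendritic cells, the counts were 3 of 57 (5.26%, 1.10 to 14.6%) and 2 of 21 (9.52%, 1.17 to 30.4%). The interval of their ratio spanned 1 (1.81, 0.151 to 15.8). Mast cell-like cells had 4 of 97 in WT (4.12%), at a median of only 1017 UMIs per cell, and patrolling monocyte-like cells 1 of 221 in TNF-Tg. At the lower threshold of 3 UMIs Cd209a dendritic cell-like cells were at 20.3% in WT and 15.1% in TNF-Tg. The interval of this ratio spanned 1 (0.747, 0.441 to 1.26). Ear2 and Retnla phagocyte-like cells were at 25.1% in WT and 15.8% in TNF-Tg. T cell-like cells were at 13.1% and 2.99% (ratio 0.228, 0.0235 to 1.14). NK cell-like cells were at 26.1% and 0 (ratio 0, up to 0.610).

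The macrophage types differed in the share with at least 10 mitotic UMIs, with intervals in WT that did not overlap. Ccr2-positive macrophage-like cells had 13 of 549 in WT (2.37%, 1.27 to 4.02%) and 8 of 393 in TNF-Tg (2.04%, 0.883 to 3.97%), a ratio of 0.860 (0.309 to 2.24). Resident macrophage-like cells, which express Lyve1 and Cd209f, had 2 of 1285 in WT (0.156%, 0.0189 to 0.561%) and 0 of 265 in TNF-Tg, which allows up to 1.13%. At the lower threshold of 3 UMIs the resident cells were at 7.63% in WT and 9.43% in TNF-Tg against 12.0% and 12.2% of the Ccr2-positive cells. At 10 UMIs inflammatory monocyte-like cells had 1 of 48 in WT and 2 of 527 in TNF-Tg (0.380%). At 3 UMIs they had 1 (2.08%) and 36 (6.83%), and the interval of the ratio spanned 1 (3.28, 0.552 to 133). The gates of these types lie close together, and 23.6% of Ccr2-positive and 8.16% of resident cells lay near the cut between 2 types.

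Stromal cells and neutrophil-like cells were at or near 0. LMC-type cells had 2 of 1533 in WT (0.130%, 0.0158 to 0.470%) and 4 of 661 in TNF-Tg (0.605%, 0.165 to 1.54%), a ratio of 4.64 whose interval spanned 1 (0.665 to 51.3). No VSMC-type cell passed among 615 in WT and 396 in TNF-Tg, which allows up to 0.488% and 0.758%. No neutrophil-like cell passed among 344 and 223, which allows up to 0.872% and 1.35%, at median depths of 3530 and 3134 UMIs. At 3 UMIs there were 4 VSMC-type cells in WT and 0 in TNF-Tg, and neutrophil-like cells reached 3.78% and 1.35%. In the tdT+ libraries no LMC-type or VSMC-type cell had 10 mitotic UMIs, and the 8 cells in tdT1 and 6 in tdT2 that did were leukocytes apart from 1 tdT1 cell of no assigned class. Over all leukocytes the share was 2.54% (2.01 to 3.16%) in WT and 0.981% (0.608 to 1.496%) in TNF-Tg, a ratio of 0.387 (0.227 to 0.633).

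**Figure D1:**
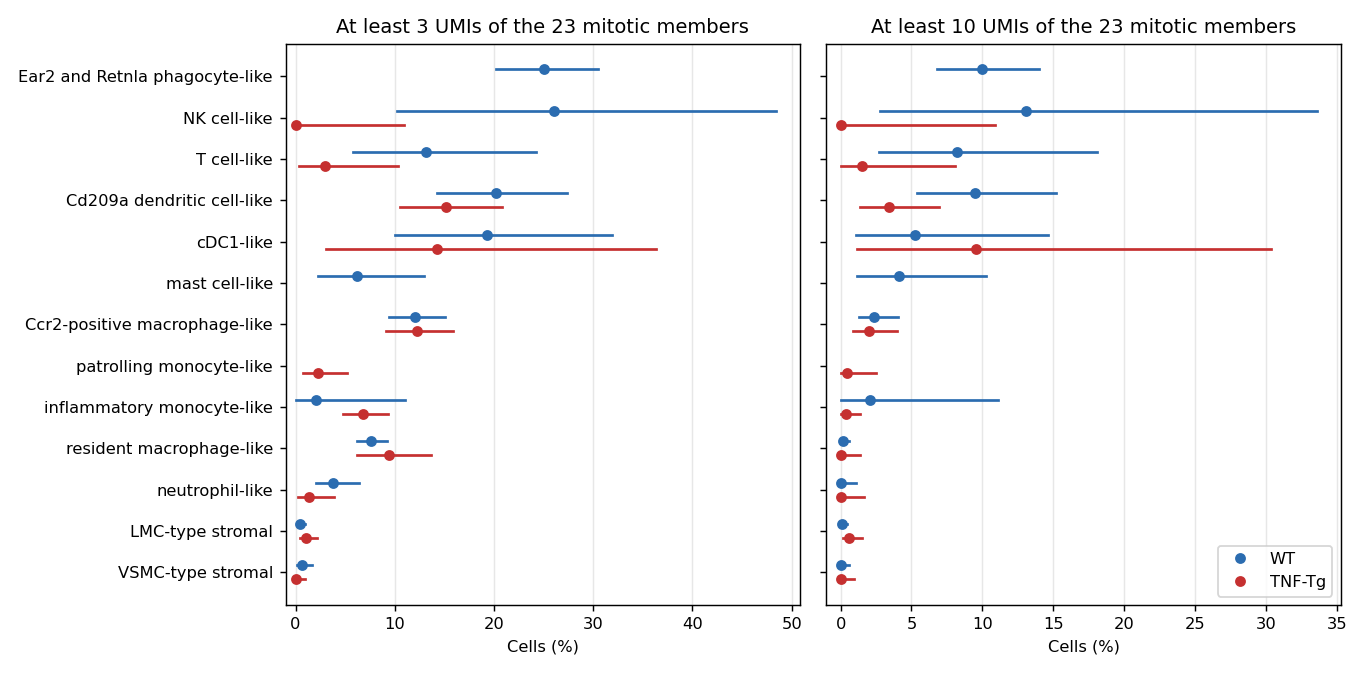
Share of cells in % (horizontal) with at least 3 (left) and at least 10 (right) UMIs of the 23 mitotic members, for gated types with at least 20 cells in WT (blue) or TNF-Tg (red). Erythroid cells, basophil-like cells and cells of unresolved or mixed type are not drawn. Points are shares and lines are exact 95% Clopper-Pearson intervals. VSMC-type stromal and neutrophil-like cells are at 0 on the right in both libraries, and Ear2 and Retnla phagocyte-like cells of WT are at 9.97%.

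In WT the summed level of the mitotic genes came mainly from these few cells in 10 of 13 types, where they gave over 50% of the mitotic UMIs, and in TNF-Tg in 6 of 13. In WT, cells with at least 10 mitotic UMIs gave 94.2% of the mitotic UMIs of the Ear2 and Retnla phagocyte-like cells, 96.1% in T cell-like, 94.9% in NK cell-like and 91.8% in Cd209a dendritic cell-like cells. Without them the summed mitotic level fell from 993 to 67.2 CPM in the Ear2 and Retnla cells and from 1384 to 64.4 CPM in the T cells. In resident macrophage-like cells of WT they gave 35.7%, and the level was 99.5 CPM with them and 64.3 CPM without. In TNF-Tg they gave 78.4% in Cd209a dendritic cell-like, 63.8% in Ccr2-positive, 41.7% in T cell-like and 8.67% in inflammatory monocyte-like cells, and there were none in resident macrophage-like, NK cell-like and neutrophil-like cells. VSMC-type cells stayed at 9.98 CPM for WT and 8.70 CPM for TNF-Tg, and LMC-type cells were at 38.1 and 32.4 CPM with the few high cells and 9.94 and 12.2 CPM without. Because so few cells hold the UMIs, intervals of CPM and of their ratios, which treat each UMI as independent, are narrower than the spread between cells.

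Mki67 followed this order across the types. Over all cells Mki67 stood at 13.05 CPM (tdT1), 13.2 CPM (tdT2), 24.8 CPM (WT) and 8.36 CPM (TNF-Tg), so that TNF-Tg was lowest and its ratio to WT was 0.337 (0.298 to 0.381). In WT the level of Mki67 was 256 CPM in NK cell-like, 195 in T cell-like, 134 in Ear2 and Retnla, 89.4 in Cd209a dendritic cell-like, 53.5 in cDC1-like, 27.4 in Ccr2-positive, 8.58 in resident, 2.53 in LMC-type and 0.156 CPM in VSMC-type cells. In TNF-Tg it was 73.7 CPM in cDC1-like, 25.8 in Cd209a dendritic cell-like, 16.7 in Ccr2-positive and 11.1 in T cell-like cells. A lower level of a bulk sum can come from another mix of types, fewer cycling cells or less RNA in each. These cannot be told apart in the sums. Ear2 and Retnla phagocyte-like cells were 5.30% of WT and 0.560% of TNF-Tg cells, and inflammatory monocyte-like cells 0.875% and 15.5%. The part of this mix in the ratios over all cells and over leukocytes was not tested.

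Top2a, the topoisomerase, stood at 12.6 CPM (tdT1), 23.8 CPM (tdT2), 24.9 CPM (WT) and 11.3 CPM (TNF-Tg). Birc5 was at 4.21, 16.5, 13.3 and 8.87 CPM in the same order, and the kinase Cdk1 at 2.10, 6.79, 5.73 and 3.43 CPM. In all 3 the WT library was higher than TNF-Tg, with TNF-Tg over WT at 0.455, 0.669 and 0.600, and tdT1 and tdT2 differed from each other by more than WT and TNF-Tg did for Birc5 and Cdk1. The centromere histone Cenpa was at 11.9, 25.9, 25.1 and 19.04 CPM, and Ube2c at 3.72, 27.6, 16.0 and 9.93 CPM. The spindle genes Nusap1 (4.14, 18.2, 10.9 and 6.44 CPM) and Prc1 (3.37, 12.7, 10.45 and 3.57 CPM) had the same order of libraries, with tdT2 highest. Cenpf was at 4.28, 8.06, 10.6 and 2.61 CPM and had the lowest ratio of TNF-Tg to WT among the 23, 0.247. Ccnb2 was at 2.60, 8.06, 8.17 and 3.78 CPM. Cyclin B1 was the exception among the named mitotic genes: Ccnb1 was at 0.491, 0.849, 3.05 and 2.80 CPM, and its ratio of 0.916 (0.717 to 1.16) spanned 1.

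Over all cells, 21 of the 23 mitotic members were lower in TNF-Tg with an interval below 1, none was higher, and the median ratio was 0.478. Over all 16460 genes with at least 10 UMIs in the 2 libraries together, 40.6% had an interval below 1 and 27.2% above 1, with a median ratio of 0.903. Over leukocytes 21 of 23 were also lower (38.4% of all genes below 1 and 26.5% above), and the median was 0.383. In stromal cells 5 of 23 were lower, a smaller share than the 33.9% of all genes (23.9% above 1), and 18 had intervals that spanned 1. Among the leukocyte types, the Cd209a dendritic cell-like cells had 18 lower and 1 higher, against 17.7% and 20.4% of all genes, and the 1 was Ccnb1 (4.53 CPM for WT, 12.1 CPM for TNF-Tg). The T cell-like cells had 19 lower and none higher, of which 17 were among the 18 members with at least 10 UMIs, against 11.1% and 3.56% of all genes. The Ccr2-positive cells had 6 lower and 1 higher against 32.7% and 21.6%, so that the share of members was below that of all genes. In cDC1-like cells these levels went the opposite way. There 15 of 23 were higher in TNF-Tg and none lower, against 13.1% and 11.3% of all genes. Of the 19 members with at least 10 UMIs 13 were higher. These values rest on 3 high cells in WT and 2 in TNF-Tg. The count in T cell-like cells also rests on 5 and 1 high cells. The share of cDC1-like cells with at least 3 mitotic UMIs was not higher in TNF-Tg (14.3% against 19.3% in WT). Its ratio was 0.740 (0.133 to 2.80).

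The replication members did not follow the mitotic members. Over all cells 8 of 11 were higher in TNF-Tg and 2 lower, with a median ratio of 1.19, against the 27.2% and 40.6% of all genes. In stromal cells 9 of 11 were higher and 1 lower against 23.9% and 33.9% of all genes, and over leukocytes 1 was higher and 3 lower against 26.5% and 38.4%. Mcm5 stood at 4.21 CPM (tdT1), 4.24 CPM (tdT2), 5.60 CPM (WT) and 9.35 CPM (TNF-Tg), a ratio of TNF-Tg to WT of 1.67 (1.44 to 1.93). Mcm6 was at 12.3, 15.3, 13.7 and 17.8 CPM, Tyms at 8.56, 6.79, 9.06 and 12.4 CPM, and Pcna at 39.6, 59.0, 63.2 and 68.6 CPM. For Mcm5 and Mcm6 the TNF-Tg library was above the other 3, which lay together for Mcm5 between 4.21 and 5.60 CPM. Rrm2, the small subunit of ribonucleotide reductase, went the other way, at 3.93, 4.24, 4.93 and 2.88 CPM. Of the 2 broad genes, Stmn1 was at 21.0, 50.1, 47.0 and 32.9 CPM and Hmgb2 at 102, 249, 188 and 311 CPM. In neutrophil-like cells Hmgb2 was at 1887 CPM for WT and 1568 CPM for TNF-Tg, where Cdk1 was at 0 UMIs in both.

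Members were next compared between each leukocyte type and the mean of the LMC-type and VSMC-type cells, across UMI sums of the 4 libraries, with the quasi-likelihood test of edgeR over 11525 genes and Benjamini-Hochberg adjustment. Of the 36 members 35 could be tested and Kif20a was too low. The filter on low counts could be passed through 1 sum. With the cells of at least 10 mitotic UMIs left out, only 20 members passed it. The other members entered the test through cells in which they are high. The counts of members called higher are therefore partly set by the filter. These tests compare types and not conditions, they used types with 2 to 4 sums each, and all 6 share the same stromal sums.

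Cd209a dendritic cell-like cells had 32 of 35 members higher at an adjusted p under 0.01 (22 with DESeq2) and none lower by either tool or at an unadjusted p under 0.05, where 21.5% of all genes tested were higher and 24.5% lower. The median log2 fold change was 4.58 for the members and -0.06 for all genes. All 22 tested mitotic members were higher, among them Mki67 (log2 6.42 ± 0.65 SE), Top2a (6.32 ± 0.64) and Birc5 (6.47 ± 0.70). The replication genes moved less, with Mcm5 at 2.45 ± 0.41 and Pcna at 0.81 ± 0.23, and 8 of 11 were higher. T cell-like cells had 30 of 35 higher and none lower, by edgeR or DESeq2, against 15.2% and 19.5% of all genes, with a median of 4.61 against -0.17. Mki67 was at 6.94 ± 0.74 and Top2a at 7.20 ± 0.67, and Ccnb1 did not pass (1.87 ± 0.99, edgeR adjusted p = 0.13). For T cell-like cells the result rests on the WT library, since only 4 members were called without it.

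Ccr2-positive macrophage-like cells had 27 of 35 higher (19 with DESeq2) and none lower by either tool, against 23.3% and 25.2% of all genes, and Tyms alone was lower at an unadjusted p under 0.05 (-1.004). The median log2 fold change was 2.98, with Mki67 at 5.29 ± 0.66 and Cenpa at 4.39 ± 0.44. Resident macrophage-like cells had 10 higher and 1 lower, against 21.1% and 24.6% of all genes, so that the share of members called higher was near that of all genes. Over all genes the split was 2435 higher and 2833 lower, 3124 and 2194 without TMM and 2725 and 1839 with DESeq2. The 10 included Kif23 (5.03 ± 0.45) and Cenpa (3.77 ± 0.45), the genes of the cells with few mitotic UMIs, and Mcm2 (1.98 ± 0.39), Mcm3 (1.83 ± 0.31) and Pcna (0.98 ± 0.20). Tyms was lower (-1.41 ± 0.41). Mki67 passed at 2.82 ± 0.80 (edgeR adjusted p = 0.0032), a value that was not past the threshold without the WT library or with DESeq2.

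Inflammatory monocyte-like cells had 7 members higher and 1 lower, against 21.7% and 24.3% of all genes (2500 higher and 2797 lower, 1818 and 3072 with DESeq2). The 7 were both broad genes (Stmn1 3.68, Hmgb2 3.82), Aurkb (6.38), Kif23, Mki67 (3.81), Ube2c (3.23) and Cenpa (3.17), and the subunit Rrm1 was lower (-2.02 ± 0.36). Neutrophil-like cells had 3 higher and 4 lower, against 23.1% and 35.6% of all genes (2667 higher and 4099 lower, 2086 and 5398 without TMM). The 3 were Kif23 (8.49 ± 0.43), Hmgb2 (5.63 ± 0.37) and Cenpa (4.18 ± 0.64), and the 4 were the replication genes Mcm6, Mcm7, Rrm1 and Tyms, from -2.31 to -4.12. Kif23 in neutrophil-like cells stood at 71.1 CPM (tdT2), 119 CPM (WT) and 81.4 CPM (TNF-Tg), above every other named type with at least 20 cells in those 3 libraries except mast cell-like cells of WT (145 CPM), while Mki67 was at 0, 3.09 and 0 CPM. Kif23 and Cenpa therefore counted as mitotic UMIs in cells where the other mitotic members were near 0.

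**Figure D2:**
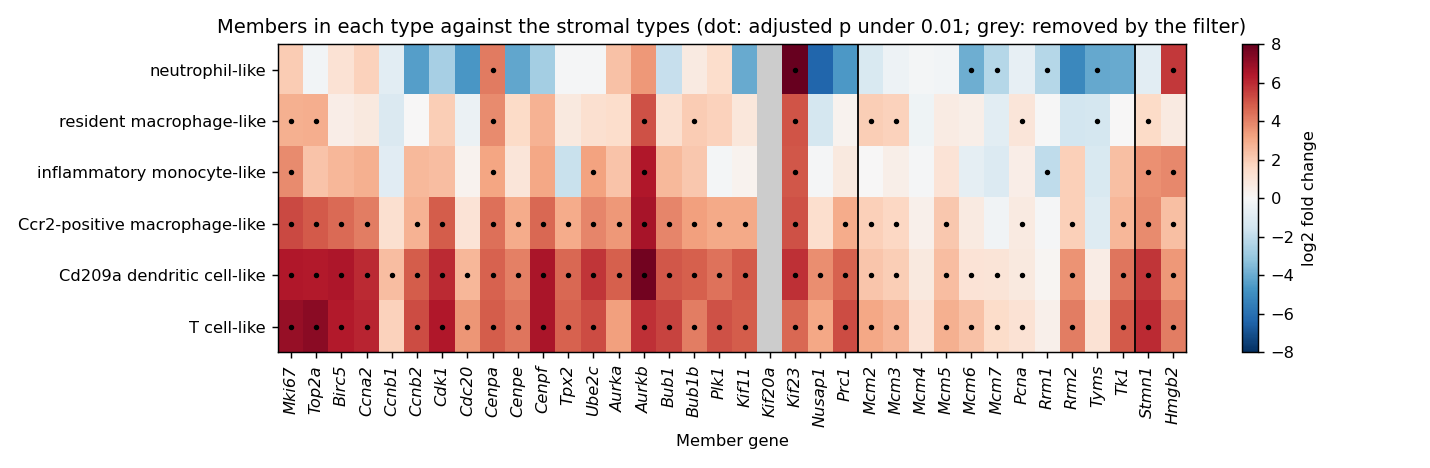
log2 fold change (colour) of each member (columns, mitotic members left of the first line, replication members between the lines, Stmn1 and Hmgb2 right) in 6 leukocyte types (rows) against the mean of LMC-type and VSMC-type stromal cells. Dots mark an adjusted p under 0.01 and grey marks Kif20a, which was not tested. T cell-like and Cd209a dendritic cell-like cells are red across the mitotic members, and in neutrophil-like cells Kif23, Cenpa and Hmgb2 have dots with positive values.

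When the cells with at least 10 mitotic UMIs were left out before summing, only 20 of the 36 members passed the filter on low counts. Of these, 11 members were higher and 2 lower in Ccr2-positive cells and 11 higher and 1 lower in Cd209a dendritic cell-like cells. T cell-like cells had 8 higher. The share of all genes called in this fit is not given, so the counts do not say whether the members exceeded it. The cells left out were 1.49% to 9.49% of the cells of these 3 types in WT and TNF-Tg.

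Of a list of 41 other cell cycle genes 39 could be tested. In T cell-like cells 31 were higher and none lower, against 15.2% and 19.5% of all genes. Cd209a dendritic cell-like cells had 30 and none (21.5% and 24.5%) and Ccr2-positive cells 25 and 2 (23.3% and 25.2%). Inflammatory monocyte-like cells had 8 and 2 (21.7% and 24.3%), resident macrophage-like cells 5 and 4 (21.1% and 24.6%) and neutrophil-like cells 4 and 6 (23.1% and 35.6%). In these last types the counts were near or below the shares of all genes. In Cd209a dendritic cell-like cells the kinase partner Cks2 was at log2 4.38 ± 0.47 and the licensing factor Cdt1 at 2.19 ± 0.43. Of 26 genes of cell cycle entry and exit 23 were tested. Against the shares of all genes given above, Ccr2-positive cells had 11 higher and 3 lower and inflammatory monocyte-like cells 11 and 4. Neutrophil-like cells had 8 and 5 and resident macrophage-like cells 6 and 5. Cd209a dendritic cell-like cells had 12 higher and 1 lower and T cell-like cells 12 higher and 3 lower, against the same shares of all genes. Cyclin E1, Ccne1, was higher in both (5.09 ± 0.64 and 5.43 ± 0.89) and the CDK inhibitor Cdkn1c, which is expressed in stromal cells, was lower in both (-5.52 ± 0.52 and -6.01 ± 0.83). Cyclin D1, Ccnd1, was higher in Cd209a dendritic cell-like (1.94 ± 0.37) and lower in T cell-like cells (-5.92 ± 1.24). These genes were named after their values were seen.

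The other cell cycle genes were also higher in the cells with at least 10 mitotic UMIs. All 41 (such as Cks2, Hmmr, Anln and Cdca8) were higher in the 77 high leukocytes of WT than in the leukocytes with under 3 mitotic UMIs, with a median ratio of 33.2, and all 41 were higher in the 21 high leukocytes of TNF-Tg, with a median of 22.8. Of all genes with at least 10 UMIs in the cells compared, 47.6% were higher in the high leukocytes of WT and 39.3% in those of TNF-Tg. The 41 genes had no part in the choice of the cells. All 11 replication members were higher as well, with median ratios of 10.3 and 7.12. In WT the level of Mcm5 was 96.2 CPM in high, 15.6 in leukocytes with 3 to 9 and 3.89 in those with under 3 mitotic UMIs, and Rrm2 was at 161, 0 and 0.347 CPM. In TNF-Tg Mcm5 was at 91.4, 30.3 and 8.18 CPM and Rrm2 at 153, 3.68 and 0.309 CPM.

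Replication genes were also high in some cells with under 10 mitotic UMIs, and the share of such cells was higher in TNF-Tg. The 6 MCM genes were summed per cell, and cells with at least 5 such UMIs were counted, a threshold set after the distribution was seen. WT held 92 such cells and TNF-Tg 89. In WT 47 of the 92 (51.1%, 40.4 to 61.7%) also had 10 mitotic UMIs, and in TNF-Tg 12 of 89 (13.5%, 7.17 to 22.4%). MCM-rich cells with under 10 mitotic UMIs made up 0.820% of WT and 2.27% of TNF-Tg cells, a ratio of 2.77 (1.89 to 4.09).

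The share of these MCM-rich cells with under 10 mitotic UMIs was higher in TNF-Tg, with an interval above 1, in 3 types. These were resident macrophage-like, LMC-type and Cd209a dendritic cell-like cells. Among resident macrophage-like cells they were 4 of 1285 in WT (0.311%) and 12 of 265 in TNF-Tg (4.53%), a ratio of 14.5 (4.41 to 61.9). Among LMC-type cells they were 6 of 1533 (0.391%) and 15 of 661 (2.27%), a ratio of 5.80 (2.13 to 18.2), with 1 of 775 in tdT1 and 0 of 133 in tdT2. Among Cd209a dendritic cell-like cells they were 3 of 158 (1.90%) and 17 of 205 (8.29%), a ratio of 4.37 (1.26 to 23.3). Of these 17 cells 11 lay in a cluster of the same type and 6 in a cluster typed as Ccr2-positive macrophage-like. Near the cut between 2 types lay 9 of them. In TNF-Tg, 6 of the 12 MCM-rich resident macrophage-like and 7 of the 17 Cd209a dendritic cell-like cells held 3 to 9 mitotic UMIs. All 15 LMC-type cells held under 3. In Ccr2-positive cells the interval spanned 1 (12 of 549 and 16 of 393, ratio 1.86, 0.827 to 4.31). The T cell-like cells had 4 of 61 in WT and 1 of 67 in TNF-Tg (ratio 0.228, 0.00462 to 2.30) and the NK cell-like cells 3 of 23 (13.04%) and 0 of 32, and both intervals of the ratio spanned 1. Ear2 and Retnla phagocyte-like cells had 7 of 291 in WT. With at least 8 MCM UMIs there were 0 LMC-type cells in WT and 10 in TNF-Tg, and 0 and 9 resident macrophage-like cells.

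The LMC-type count depended on how cells were assigned. Of the 15 TNF-Tg cells 11 lay in 1 cluster of 304 cells that held 126 LMC-type and 129 VSMC-type cells, and with types taken from clusters the LMC-type share in TNF-Tg was 0.725%. Over all stromal cells, which does not depend on that split, they were 6 of 2188 in WT (0.274%) and 17 of 1107 in TNF-Tg (1.54%), a ratio of 5.60 (2.11 to 17.3). No predicted doublet was among the TNF-Tg cells of either type. They were deeper than other cells of their type, with a median of 22063 against 12460 UMIs in LMC-type cells of TNF-Tg and 18499.5 against 10203 in resident macrophage-like cells. Depth was set equal by thinning the cells with under 10 mitotic UMIs and at least 3000 UMIs to 3000 and counting those that kept at least 2 MCM UMIs, which left out 361 TNF-Tg and 747 WT cells. Over all cells the ratio was then 1.65 (1.19 to 2.28). Over all stromal cells these were 18 of 1022 in TNF-Tg (1.76%) and 26 of 2034 in WT (1.28%), and the interval of the ratio spanned 1 (1.38, 0.712 to 2.61). The LMC-type cells had 18 of 651 and 19 of 1506 (ratio 2.19, 1.08 to 4.41), and the VSMC-type cells 0 of 341 and 7 of 525. The higher share over all stromal cells of TNF-Tg was therefore not detectable at this depth. In resident macrophage-like cells 13 of 243 and 15 of 1195 were left (ratio 4.26, 1.87 to 9.60) and in Cd209a dendritic cell-like cells 14 of 196 and 2 of 142 (ratio 5.07, 1.16 to 45.98).

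**Figure D3:**
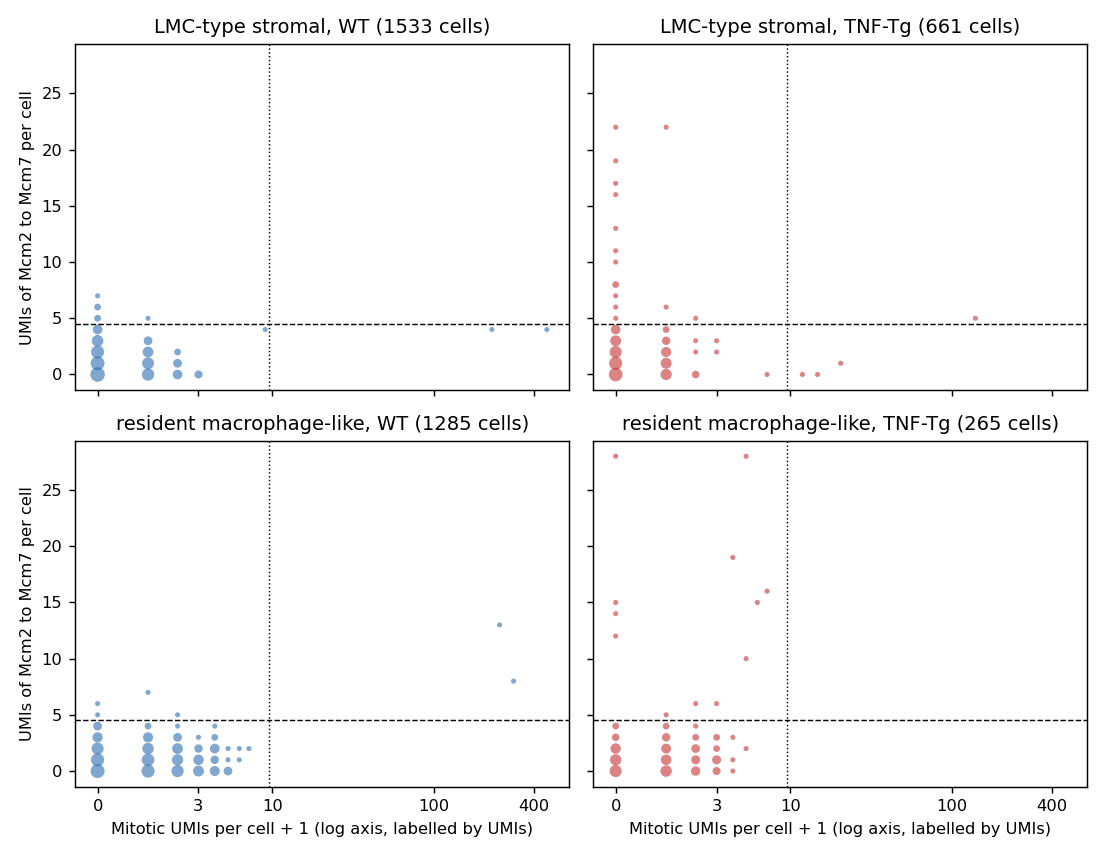
UMIs of Mcm2 to Mcm7 per cell (vertical) against UMIs of the 23 mitotic members per cell plus 1 (horizontal, log axis labelled by UMIs) for LMC-type stromal (top) and resident macrophage-like cells (bottom) of WT (left) and TNF-Tg (right). Each point is 1 combination of values and larger points stand for more cells. The dashed line lies below 5 MCM UMIs and the dotted line below 10 mitotic UMIs, and the area left of the dotted and above the dashed line holds 6 and 15 LMC-type and 4 and 12 resident macrophage-like cells in WT and TNF-Tg.

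Genes that had no part in choosing these cells were higher there together with the MCM genes in TNF-Tg. In the 17 stromal cells of TNF-Tg, 18 of 19 other replication genes were higher than in the other stromal cells, 14 of them with an interval above 1 and none below, where 43.6% of all genes with at least 10 UMIs were higher, 6.25% with an interval above 1 and 4.97% below. With that minimum of 10 UMIs it was 16 of 17 and 12, and over all 19 their summed level was 586 against 121 CPM. Hells, a chromatin remodeller, was 29.3 times higher (16.1 to 52.8), the licensing factor Cdt1 26.8 times and Uhrf1, which couples methylation to replication, 35.7 times. The mitotic members stood at 13.6 against 11.02 CPM. The 22 mitotic genes of the list of other cell cycle genes stood at 299 against 140 CPM. Of these, 10 were higher, 3 with an interval above 1 and none below, against the shares of all genes given above. In the 6 WT stromal cells 5 of the 19 genes were higher, against 38.8% of all genes, and the summed level was 1.26 times that of the others. In leukocytes all 19 were higher in both libraries, where 43.4% and 52.2% of all genes were. Their sum was 6.13 times as high in WT and 7.88 times in TNF-Tg. The mitotic members were also higher in these leukocytes, at 137 against 70.2 CPM in WT and 152 against 63.3 CPM in TNF-Tg.

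Summed over a whole type, without the cells of at least 10 mitotic UMIs, the 6 MCM genes had 55.0 CPM for WT and 127 CPM for TNF-Tg in resident macrophage-like cells (ratio 2.31, 2.05 to 2.61), 42.7 and 75.6 CPM in LMC-type cells (1.77, 1.61 to 1.95) and 60.3 and 131 CPM in Cd209a dendritic cell-like cells (2.18, 1.78 to 2.69). The ratio was 1.22 (1.01 to 1.48) in VSMC-type, 1.12 (0.985 to 1.27) in Ccr2-positive and 0.687 (0.480 to 0.976) in T cell-like cells. In LMC-type cells Mcm5 was at 1.17 CPM in WT and 5.67 in TNF-Tg (ratio 4.86, 3.03 to 7.94), Mcm2 had a ratio of 4.52 and Pcna rose less, from 39.6 to 57.2 CPM. With the high cells kept, Mcm5 in LMC-type cells was at 1.80 CPM (tdT1), 1.26 CPM (tdT2), 1.24 CPM (WT) and 5.75 CPM (TNF-Tg), so that the 3 libraries without the transgene lay together below TNF-Tg. Rrm1 was below 1 (0.816) and the interval of Rrm2 spanned 1 (0.625, 0.210 to 1.55). The MCM sum was also taken over all cells but those with at least 5 MCM UMIs, at any number of mitotic UMIs. It was still higher in TNF-Tg in LMC-type cells, at 58.6 against 41.8 CPM (75.9 and 42.9 with all cells). In resident macrophage-like cells it was 75.9 against 53.8 CPM (127 and 56.1 with all cells). In Cd209a dendritic cell-like cells it was not higher, at 47.1 CPM for TNF-Tg and 48.9 CPM for WT (146 and 102 with all cells).

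**Figure D4:**
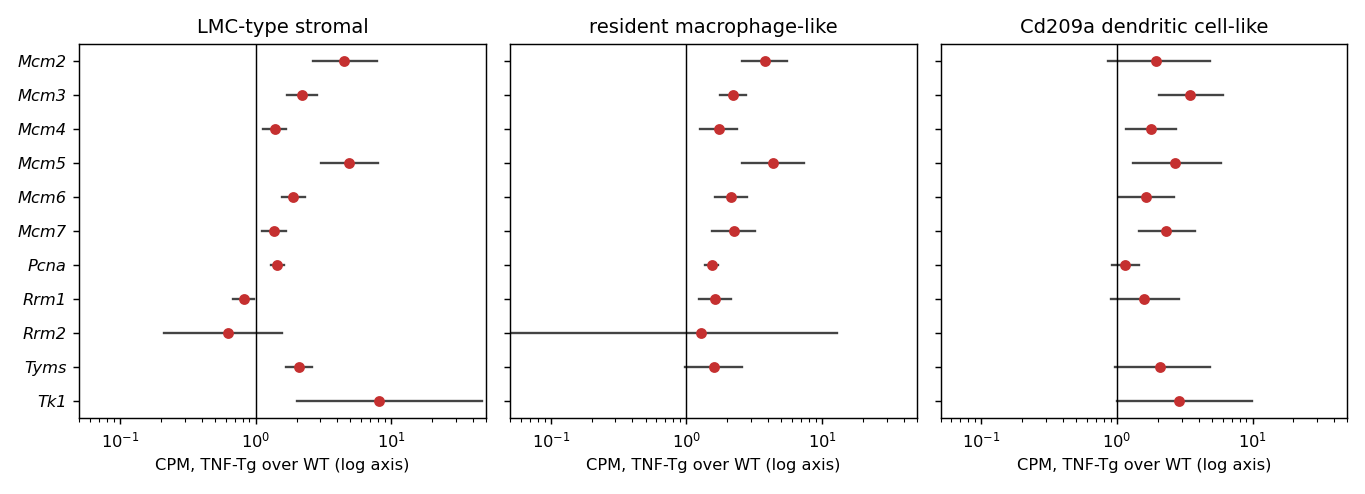
CPM in TNF-Tg over CPM in WT (horizontal, log axis) of the 11 replication members in LMC-type stromal, resident macrophage-like and Cd209a dendritic cell-like cells, without the cells of at least 10 mitotic UMIs. Points are ratios and lines exact 95% conditional intervals of the counts. Tk1 in resident macrophage-like cells (0 CPM in TNF-Tg) and Rrm2 in Cd209a dendritic cell-like cells (0 CPM in WT) have no point. Mcm5 is at 4.86 in LMC-type cells, and Rrm1 lies below 1 there.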

How the data were processed

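The 4 libraries (tdT1, tdT2, WT and TNF-Tg, 3 pooled mice each) were deposited by the authors as unnormalized UMI counts per gene and cell for the barcodes called as cells. The submitters' processing notes name Cell Ranger 3.1.0, Seurat 4.0.3 and the mm10 build, and the matrix headers name Cell Ranger 3.1.0 for tdT1 and 6.0.1 for the others. Depth ran from 2357031 to 68773605 UMIs per library.

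No barcode was removed. Doublets were predicted with Scrublet in scanpy 1.11.5 (4, 0, 137 and 74 cells in tdT1, tdT2, WT and TNF-Tg) and kept, and the prediction for tdT1 and tdT2 marked too few cells to be of use. Libraries shared 0 to 5 barcodes per pair. Cells were split into stromal (at least 40 UMIs of 7 stromal markers per 10000) and leukocyte (at least 10 of 7 markers), and each cell took the type whose markers were highest relative to that type's best cells, with at least 3 markers detected and a relative level of at least 0.3. This scoring was set after the files had been looked at, and the names are rebuilt, so shares may differ from the study's clusters. UMIs were summed per type and library and scaled to 1000000 (CPM) in Python (3.11.15), using scipy 1.17.1, pandas 2.3.3 and numpy 2.4.6. A count of 0 is set against a floor of 3, which is tighter than the Clopper-Pearson upper limit (0.598% for 0 of 615 cells). Shares have Clopper-Pearson, CPM exact Poisson and ratios exact conditional binomial 95% intervals. Counts of members past such an interval are given beside the share over all genes with at least 10 UMIs in the cells compared.

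Tests between types used the quasi-likelihood fit in edgeR 4.0.16 (R 4.3.3) over 39 sums of at least 20 cells (TMM, filterByExpr, library as a covariate, 11525 genes, threshold 0.01), after a run on simulated data with 200 changed genes. The ± SE of the edgeR fits was derived as the absolute log2 fold change over the square root of the quasi-likelihood F statistic. DESeq2 1.42.0 was the alternative tool. The authors' per-cell rank test was not used, since cells of 1 library are not replicates. Each library is 1 pool, so these p-values rest on a spread between sums of at most 4 pools, estimated over all types together. T cell-like and Cd209a dendritic cell-like cells had 2 sums each. Other alternatives changed thresholds, depth, cells, gates and libraries, and leaving out a library left T cell-like and Cd209a dendritic cell-like cells with 1 sum, which was assumed to vary like the other types. Values in each library were given for 12 members chosen by rule and for the 6 others with the most UMIs in cells with at least 3 mitotic UMIs. Kif23, Aurkb, Kif11 and further members were named after their values were seen. The members, marker lists and gene lists were chosen with earlier results of these data known. Figures were drawn with matplotlib 3.10.9.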

Additional observations from a re-analysis of the deposited data

Results flagged for a closer look

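The direction of the difference between TNF-Tg and WT was opposite in some pairs of types. The summed level of the 23 mitotic members in TNF-Tg over WT was 2.40 (interval 2.08 to 2.77) in cDC1-like and 0.486 (0.45 to 0.53) in Cd209a dendritic cell-like cells. For Mcm2 to Mcm7, without cells of at least 10 mitotic UMIs, it was 2.31 in resident macrophage-like and 0.687 in T cell-like cells. Within Cd209a dendritic cell-like cells the MCM sum was 2.18 times as high in TNF-Tg while the mitotic sum was 0.486 times as high. The pairs were picked by hand and kept because their ratios lay on opposite sides of 1, as their intervals also did. None was tested, since each condition is 1 library, and the cDC1-like value rests on 3 and 2 cells with at least 10 mitotic UMIs. The share of cDC1-like cells with at least 3 mitotic UMIs was 14.3% in TNF-Tg and 19.3% in WT. The interval of that ratio spanned 1 (0.740, 0.133 to 2.80).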

How the results depend on the processing

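The share of cells with at least 3 mitotic UMIs was 12.6% (WT) and 11.4% (TNF-Tg) with a threshold of 2 UMIs, 2.41% and 1.89% at 5, and 1.51% and 0.767% at 10 (ratio 0.507). With cells thinned to 3000 UMIs it was 1.68% and 0.851% at 3 UMIs (ratio 0.507) and 13.2% and 12.4% at 1 UMI. It was 3.46% and 2.89% without Cenpa, 2.68% and 2.36% without Cenpa and Kif23, and 5.21% in WT with at least 2 different members. The ratio of TNF-Tg to WT, 0.812 (0.672 to 0.977), stayed below 1 in each of these, but its interval spanned 1 in 6 of 10 settings, with 2 UMIs (0.902, 0.794 to 1.02), 5 UMIs (0.785, 0.573 to 1.07), 1 thinned UMI (0.941), without Cenpa (0.835), without Cenpa and Kif23 (0.881) and with 2 different members (0.843). Of 371 ratios of single members by type, 168 had an interval off 1, 64 above and 104 below. After thinning it was 50 of 320, 17 above and 33 below. The share of all genes over the same types is not given, so these counts do not say whether the members exceeded it. The share of MCM-rich cells in WT was 0 at 8 UMIs in LMC-type and in resident macrophage-like cells, and with types from clusters it was 0.725% in LMC-type cells of TNF-Tg.

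For the settings below the share of all genes called is not given, so the counts describe the members alone. The number of members called against stromal cells changed by over 1.5 times as follows, and the cause was not tested. In resident macrophage-like cells it was 7 without the library covariate and 6 with types from clusters, against 11. In inflammatory monocyte-like cells it was 17 without the filter on low counts and 13 without cells of at least 10 mitotic UMIs, against 8. Without those cells, where 20 members were left to test against 35, it was 13 in Ccr2-positive cells against 27, 12 in Cd209a dendritic cell-like cells against 32 (17 with types from clusters) and 8 in T cell-like cells against 30. Leaving out 1 library at a time gave 8 to 13 calls in resident, 22 to 28 in Ccr2-positive, 8 to 13 in inflammatory monocyte-like (8 higher and 5 lower without WT, 13 higher and none lower without TNF-Tg, the latter with 6 of the 8 calls made with all libraries), 23 to 31 in Cd209a dendritic cell-like, 4 to 31 in T cell-like (4 without WT) and 5 to 7 in neutrophil-like cells.

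Directions of fitted log2 changes reversed for few members. Without cells of at least 10 mitotic UMIs, Nusap1 was at -5.89 in Ccr2-positive, -5.91 in Cd209a dendritic cell-like and -5.91 in T cell-like cells, Kif11 at -2.68 in Cd209a dendritic cell-like cells, and Cenpf at -1.46 and Aurkb at -1.20 in T cell-like cells. Over the fits that left out 1 library, T cell-like cells had Ccna2 between -1.75 and 6.73, Ccnb2 between -3.84 and 6.06, Cenpe between -3.27 and 5.09, Cenpf between -0.79 and 7.06, Aurkb between -1.12 and 6.55, Kif11 between -1.79 and 5.16 and Nusap1 between -0.48 and 3.91, with the lowest value of each without WT and the highest without TNF-Tg. In inflammatory monocyte-like cells Nusap1 was between -5.65 (without WT) and 2.25 (without TNF-Tg), and it was at -0.019 in Cd209a dendritic cell-like cells with types from clusters. Without TMM the median of all genes moved from -0.08 to 0.18 in resident and from -0.68 to -1.20 in neutrophil-like cells.

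No paired analysis was possible because the groups share fewer than 2 replicate numbers. Depth limited the low members: values at 0 UMIs are read against the floor of 3. WT and TNF-Tg are single pools, so no interval covers the spread between mice.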

Other observations

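Genes of cell cycle entry and exit were described in the same cells. In leukocytes with at least 10 mitotic UMIs, 22 of 26 such genes were higher than in leukocytes with under 3 mitotic UMIs in WT and 18 of 26 in TNF-Tg, where 47.6% and 39.3% of all genes with at least 10 UMIs were higher. Cyclin E2, which with Cdk2 starts DNA synthesis, stood at 54.2 against 0.347 CPM in WT and 51.6 against 0.566 CPM in TNF-Tg. The E2F repressor E2f7 was at 28.8 against 0.0694 CPM and 19.9 against 0.0514 CPM, and the CDK inhibitor Cdkn2c at 83.0 against 11.6 CPM and 61.6 against 10.03 CPM. The antiproliferative genes Btg1 and Btg2 were lower in both libraries, Btg1 at 318 against 475 CPM in WT and 187 against 605 CPM in TNF-Tg, and Btg2 at 271 against 465 CPM and 151 against 292 CPM. In the 17 MCM-rich stromal cells of TNF-Tg, 13 of the 26 were higher, 6 with an interval above 1 and 3 below, against 6.25% and 4.97% of all genes. Among the 9, Ccnd1 was 4.04 times (interval 3.20 to 5.04) and E2f1 4.26 times (2.57 to 6.72) the level in other stromal cells, while the CDK inhibitors Cdkn1a and Cdkn1b were at 0.14 (0.02 to 0.52) and 0.21 (0.06 to 0.54) times. These genes were named after their values were seen.

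Outside all lists and among genes with at least 100 CPM in the leukocytes with at least 3 mitotic UMIs of both libraries, the 10 genes with the highest ratio of leukocytes with at least 3 mitotic UMIs over the others (the lower of the 2 libraries, from 84.7 for Pclaf to 2.10 for Tuba1b) were the replication clamp partner Pclaf, histone genes (Hist1h1b, Hist1h2ae, Hist1h2ap, Hist1h4d and H2afx), Hmgn2 and the tubulins Tubb5, Tubb4b and Tuba1b. In cells with at least 10 mitotic UMIs Pclaf was 433 times higher in WT and 396 times in TNF-Tg, Hist1h1b 114 and 98.0 times and Tuba1b 4.58 and 4.38 times. They are a description and were not tested.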
